A study of Mus musculus with 34 samples.

Results

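Hepatic glucose production and the liver-type steps of glycolysis were followed through 9 genes in the livers of C57BL/6 mouse pups whose thyroid hormone (TH) status was altered for a few days or a few hours. The genes were Pck1, G6pc, Slc37a4, Fbp1, Pcx, Gckr, Pklr, Pfkfb1 and Slc2a2, and their members on the array were all probes outside the array's controls whose RefSeq accession belonged to one of these symbols. A probe was found for 8 of the 9 genes, with 1 probe for each of 7 genes and 2 probes for Slc2a2, so that 8 of the 16535 named genes on the array and 9 of its 41174 probes are described. Pck1 (chromosome 2, 173153073 to 173159274, GRCm38.p6), the cytosolic enzyme that turns oxaloacetate into phosphoenolpyruvate, was not analysed here.

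Liver RNA of 34 pups was hybridised, 1 pup per array, to 2-colour arrays that carried 4 arrays to a slide. The pup RNA was labelled with Cy5 and a commercial universal mouse reference RNA with Cy3, always in this orientation. All pups were killed at postnatal day (PND) 15, and all dams drank water with 1% sucrose. Control pups (4 males, 4 females) received saline intraperitoneally 4 hours before they were killed. The dams of hypo pups (4 males, 5 females) drank water with 0.05% methimazole, which blocks hormone synthesis, and 1% perchlorate, which blocks iodide uptake, for 3 days, from PND 12 in the study's methods and PND 13 in its series record, and these pups also received saline. Hyper pups (5 males, 5 females) had untreated dams and were injected 4 hours before death with thyroxine (T4, 50 μg) and triiodothyronine (T3, 5 μg), doses that are given for every 100 g the pup weighed. Hypo+ pups (4 males, 3 females) came from dams on the same methimazole and perchlorate water and were injected at the same time with smaller doses, 20 μg for T4 and 2 μg for T3, on the same weight basis. The methods placed a pup in hypo+ only if its serum T4 was near or slightly above control levels, so this group was chosen in part by its hormone level, and they removed 2 arrays of each sex as outliers before the data were used. The animal numbers began with 20 different 2-digit prefixes, 14 of them in both sexes, which were read as litters. With so few litters to a treatment (4 for control, 6 for hyper, 5 each for hypo and hypo+), siblings and treatment cannot be fully separated.

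The liver makes glucose from lactate, glycerol and amino acids by running glycolysis backwards around its irreversible steps, and it consumes glucose through the same intermediate pool after a meal. Pyruvate carboxylase (Pcx), phosphoenolpyruvate carboxykinase (Pck1), fructose-1,6-bisphosphatase (Fbp1) and the glucose-6-phosphatase system (G6pc with its transporter Slc37a4) carry the backward direction. The regulatory protein Gckr, the bifunctional enzyme Pfkfb1 and liver pyruvate kinase (Pklr) act on the forward direction, and the transporter Slc2a2 (GLUT2) lets glucose cross the hepatocyte membrane both ways. Suckling pups live on milk fat and depend on gluconeogenesis, and thyroid hormones are known to raise hepatic glucose output in adult rodents.

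Levels are given as log2 ratios of Cy5 over Cy3 after loess normalisation, in which a difference of 1 is a 2-fold change in pup liver relative to the reference. All 9 probes were well above background in the Cy5 channel on all 34 arrays. In the Cy3 channel the same held for 7 of the probes, whereas Pklr was well above background on 33 arrays and the brighter Slc2a2 probe on 26. Median Cy5 signals of the arrays ran from 146 to 199 and Cy3 medians from 64 to 100. The tissue label was borne out by 8 hepatocyte markers (a ninth was not analysed here), whose mean log2 ratio was between 3.90 and 5.68 on every array. A set of 9 pancreatic acinar genes stood out on 4 arrays (male controls 522 and 832, female control 831 and female hypo+ 543) with mean log2 ratios of 1.84 to 4.43 against 0.0861 to 0.434 elsewhere. The 8 arrays of the last of 6 scan days, which held 1 pup of every treatment in each sex, gave higher ratios for several members, as described further on.

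No member passed the test in any comparison. Each comparison was tested with limma over all 41174 probes and called at a Benjamini-Hochberg adjusted p under 0.05, and p-values measured the spread between pups. In males, 0 of 9 member probes were called for hypo against control, where 0.0971% of all probes were, 0 for hyper against control (0.0753% of all probes), 0 for hypo+ against control (0.0267%) and 0 for hypo+ against hypo (0.369%). In females, 0 of 9 were called in the same comparisons, with backgrounds of 0.155%, 0.158%, 0.0219% and 0.556% of all probes. With both sexes in one fit, in which litter entered as a random block, 0 of 9 were called for hypo against control (background 0.95%), hyper against control (0.692%), hypo+ against control (0.588%) and hypo+ against hypo (2.72%). A count of 0 of 9 is near these backgrounds, so it is not a result about the genes as a group.

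At an unadjusted p under 0.05, with both sexes together, 2 members were lower in hypo (Slc37a4 and Pfkfb1), the same 2 were lower in hyper, 1 was higher in hypo+ than in control (the brighter Slc2a2 probe) and 1 was higher in hypo+ than in hypo (Slc37a4). Of all probes, 3233, 2651, 4169 and 5326 were under that limit in these comparisons. The median difference over the 9 probes was 0.06 for hypo against control, -0.05 for hyper against control, 0.16 for hypo+ against control and 0.12 for hypo+ against hypo on the log2 scale, and over all probes the medians were 0.00, 0.00, -0.01 and -0.01. A test of whether the response differed between females and males called 0 members and 0 of all probes (background 0%) for hypo, hyper and hypo+, and no member fell under an unadjusted p of 0.05 there, against 534, 633 and 656 of all probes.

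**Figure D1:**
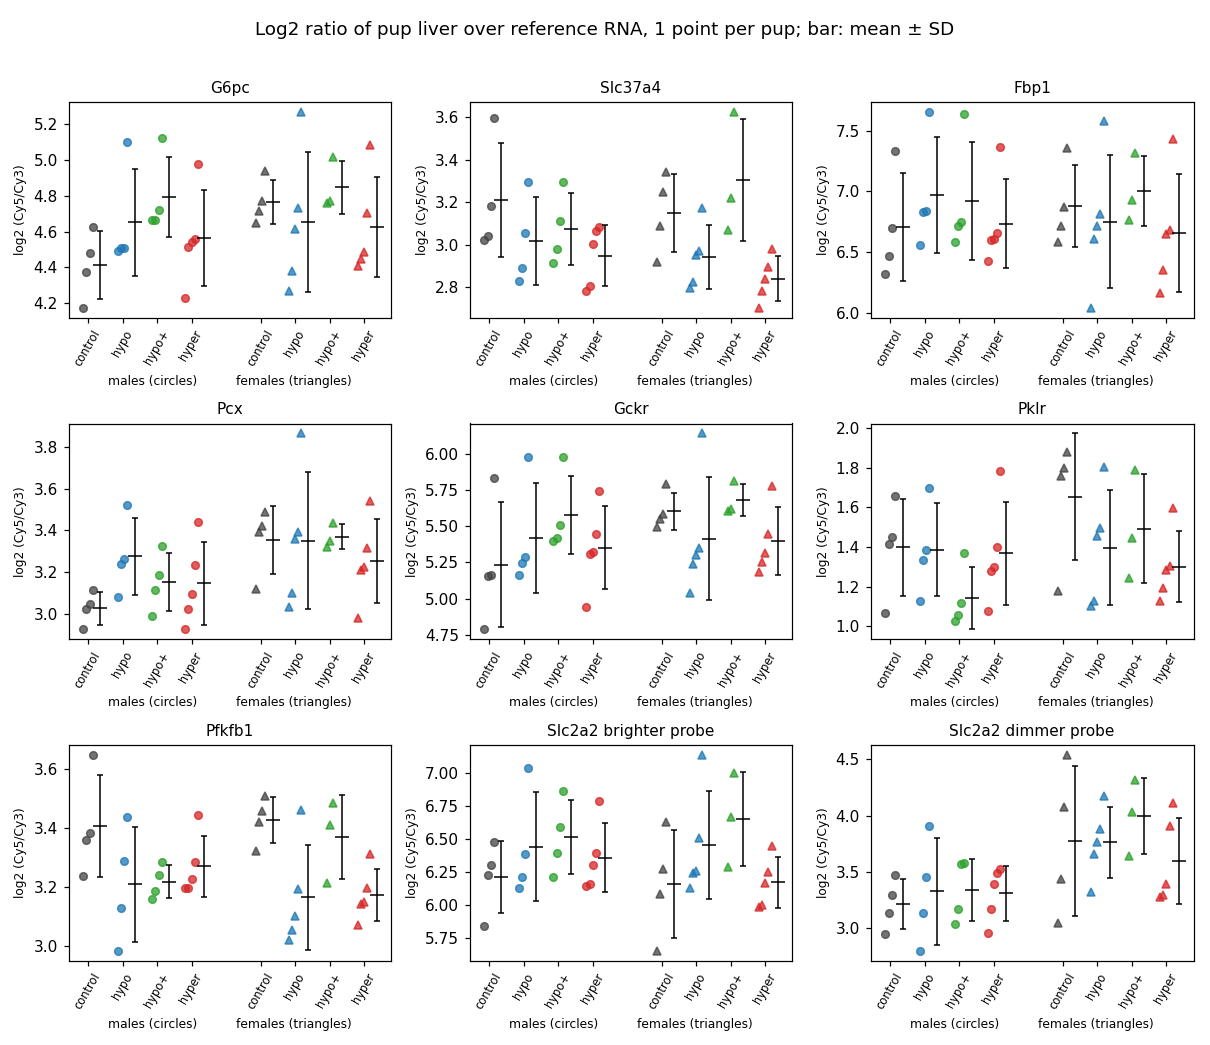
Log2 ratio of Cy5 (pup liver) over Cy3 (reference RNA) for the 9 member probes, 1 panel per probe and 1 point per pup, with the mean ± SD of each group beside its points; males are circles and females triangles. The groups overlapped in nearly all panels, and the female hyper pups lay below the female controls for Pfkfb1 (3.07 to 3.31 against 3.32 to 3.51). How large a share of all probes separated in such a way was not counted.

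Glucose-6-phosphatase is the last step of both gluconeogenesis and glycogen breakdown, and its catalytic subunit is G6pc (chromosome 11, 101367716 to 101377903, GRCm38.p6). In males the log2 ratio of G6pc was 4.17, 4.37, 4.48 and 4.63 in the 4 controls and 4.66, 4.66, 4.72 and 5.12 in the 4 hypo+ pups. Every male hypo+ pup thus lay above every male control, but the share of all probes that separated in this way was not counted. The difference in G6pc was 0.38 ± 0.16 (SE), with an adjusted p of 0.604. In females the hypo+ values of 4.76, 4.77 and 5.02 overlapped the control values of 4.65, 4.71, 4.77 and 4.94, and the difference was 0.08 ± 0.19. Over both sexes hypo+ exceeded control by 0.23, with a 95% interval (1.96 SE on either side) of -0.04 to 0.49. The hepatocyte markers stood on the same side, with 8 of 8 higher in hypo+ than in control (median difference 0.30). Of these 0 were called, where 0.588% of all probes were, and their mean ratios were 4.77 to 5.56 against 3.90 to 5.35. Their part in the result was not tested. For hyper the G6pc difference was 0.00 with an interval of -0.24 to 0.25, and for hypo 0.06 with an interval of -0.19 to 0.31.

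Both channels of G6pc moved together. When each channel was normalised alone, the log2 Cy5 signal of G6pc had a median of 13.9 in controls (13.2 to 14.9) and 14.9 in hyper pups (14.1 to 15.6). The Cy5 signal was 0.88 ± 0.20 higher in hyper than in control livers, a call with an adjusted p of 0.0322 where 0.576% of all probes were called. The Cy3 signal of the same spots, which came from 1 common reference RNA, had a median of 9.07 in controls and 9.67 in hyper pups. It was 0.78 ± 0.19 higher, with an unadjusted p of 0.000219 and an adjusted p of 1.00, and 0% of all probes were called in that channel. In hypo pups 0 members were called in Cy5 (1.02% of all probes) or in Cy3 (0.00243%). In hypo+ pups the Cy5 signal was 0.69 ± 0.22 and the Cy3 signal 0.42 ± 0.20 above control, with adjusted p-values of 0.256 (0.289% of all probes called) and 1.00. Across the 34 arrays the channels of G6pc correlated at r = 0.91, and 10% of all probes had a correlation as high or higher, with a median of 0.60. The points share array, spot and hybridisation. Among known TH targets the correlation was 0.89 for Thrsp, 0.80 for Dio1 and 0.38 for Me1. The Cy3 signal of Dio1 was 0.55 ± 0.12 lower in hypo than in control pups, and that of Thrsp was 0.53 ± 0.14 higher in hyper pups. For Me1 the Cy3 differences were -0.05 ± 0.06 in hypo and -0.04 ± 0.06 in hyper pups. None of these Cy3 differences was called. The cause of the shared movement was not tested.

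**Figure D2:**
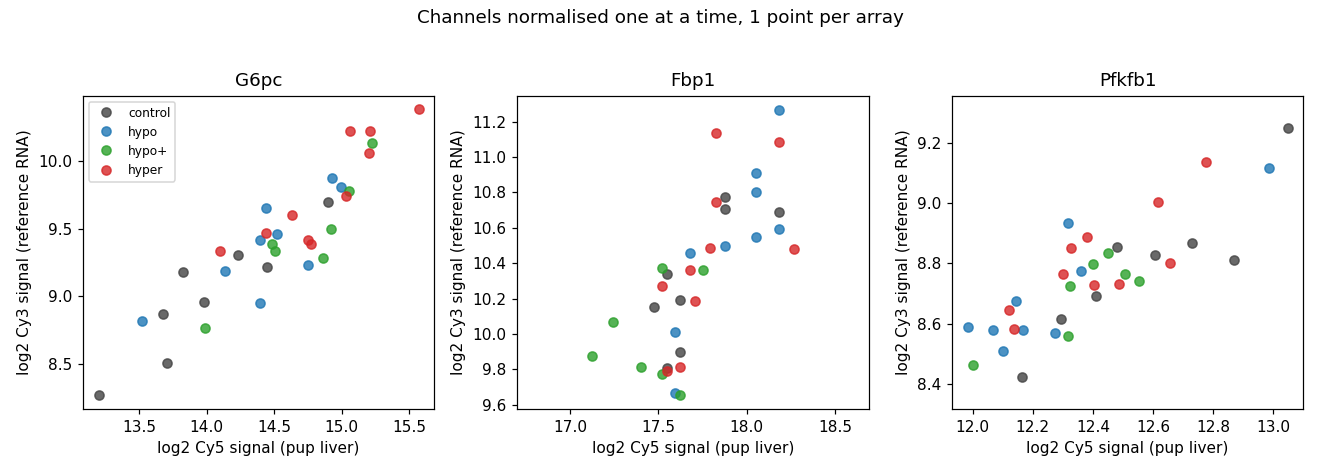
Log2 Cy3 signal (reference RNA) against log2 Cy5 signal (pup liver) for G6pc, Fbp1 and Pfkfb1, each channel normalised alone, 1 point per array coloured by treatment. For G6pc the hyper arrays lay toward the upper right and the control arrays toward the lower left, so that both channels moved along one line (r = 0.91).

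The window around the start of G6pc is shown because its Cy5 signal was called in hyper pups. The G6pc ratio was not called there (difference 0.00), and the Cy3 reference signal of the same spots was 0.78 higher. The window is as annotated by RefSeq on GRCm38.p6 (chr11:101367466-101367765, plus strand, 250 bases before the start and 50 after). The capitals mark a nuclear receptor half-site (AGGTCA on the minus strand, read here as TGACCT) 54 bases before the start.
G6pc: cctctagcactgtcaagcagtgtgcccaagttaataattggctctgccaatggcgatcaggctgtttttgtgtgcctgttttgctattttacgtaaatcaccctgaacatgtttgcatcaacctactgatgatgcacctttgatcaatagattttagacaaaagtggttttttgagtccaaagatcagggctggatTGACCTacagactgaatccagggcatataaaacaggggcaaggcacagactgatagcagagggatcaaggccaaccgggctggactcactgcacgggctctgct

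Slc37a4 (chromosome 9, 44396946 to 44402966) encodes the transporter that brings glucose 6-phosphate into the endoplasmic reticulum, where G6pc acts. In females its log2 ratio was 2.92, 3.09, 3.25 and 3.34 in controls, 2.70, 2.78, 2.84, 2.90 and 2.98 in hyper pups, and 2.80, 2.82, 2.95, 2.97 and 3.17 in hypo pups. The female hypo+ pups were at 3.07, 3.22 and 3.63. The female hyper values lay in the lower part of the control range or below it. The female hypo+ values overlapped the controls, with only the pup at 3.63 above them, and the difference was 0.16 ± 0.13. In males the controls were at 3.02, 3.04, 3.18 and 3.60, the hyper pups at 2.78, 2.80, 3.00, 3.07 and 3.08, the hypo pups at 2.83, 2.89, 3.06 and 3.29, and the hypo+ pups at 2.91, 2.98, 3.11 and 3.30. The highest male control was animal 522, one of the 4 arrays with acinar transcripts.

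Over both sexes Slc37a4 was 1.22-fold lower in hyper than in control pups, a log2 difference of -0.29 ± 0.09 with an adjusted p of 0.205. Hypo pups differed from controls by -0.20 ± 0.09 (adjusted p 0.563), and hypo+ pups stood 0.21 ± 0.09 above hypo pups (adjusted p 0.316). The hypo+ against hypo difference was 0.36 ± 0.12 in females and 0.06 ± 0.13 in males, with adjusted p-values of 0.306 and 0.949. On slides that held both treatments, the hyper pup was below the control in Slc37a4 on 7 of 8 slides (median difference -0.39), and the hypo pup on 5 of 7 slides (median -0.17). Hypo+ pups were below the control on 4 of 5 slides (median -0.18), whereas the fit over all pups gave 0.01 ± 0.10. Against hypo they were lower on 2 of 4 slides and higher on the other 2 (median -0.02), so the difference of 0.21 was not seen within slides. Without the 4 arrays rich in acinar transcripts the hyper difference was -0.17 and the hypo difference -0.08, with adjusted p-values of 0.883 and 1.00.

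The first of 3 annotated start windows of Slc37a4 (chr9:44396696-44396995, plus strand, GRCm38.p6, RefSeq) is shown since it held matches to both the nuclear receptor and the cAMP half-site. The capitals mark AGGTCA, 127 bases before the start, and TGACG, 61 bases before it.
Slc37a4: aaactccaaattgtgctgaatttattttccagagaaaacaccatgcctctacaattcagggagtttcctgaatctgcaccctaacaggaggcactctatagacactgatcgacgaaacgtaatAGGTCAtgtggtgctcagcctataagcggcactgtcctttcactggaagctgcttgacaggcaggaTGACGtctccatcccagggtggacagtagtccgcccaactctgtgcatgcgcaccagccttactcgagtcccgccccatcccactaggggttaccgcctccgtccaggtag

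Fbp1 (chromosome 13, 62864753 to 62888298) removes the phosphate at the committed step of gluconeogenesis. Its log2 ratio ran from 6.04 to 7.65 over the 34 pups. Group means were 6.71 ± 0.45 (SD, n = 4) in male controls, 6.97 ± 0.47 in male hypo pups, 6.73 ± 0.37 in male hyper pups and 6.92 ± 0.48 in male hypo+ pups. Female means were 6.88 ± 0.34, 6.75 ± 0.55, 6.66 ± 0.48 and 7.00 ± 0.29 in the same order. None of these groups separated from its controls. Over both sexes the 95% interval of the hypo difference was -0.35 to 0.48, that of the hyper difference -0.50 to 0.30, and that of the hypo+ difference -0.28 to 0.60. In the Cy5 channel alone Fbp1 was 0.48 ± 0.12 lower in hypo+ than in hypo pups (adjusted p 0.0376, where 1.94% of all probes were called). The Cy3 difference was -0.55 ± 0.21 (adjusted p 0.934, where 0.00971% of all probes were called), whereas the ratio differed by 0.09 ± 0.22 in the other direction. Raw Cy5 signals of Fbp1 were 134280 to 337790. Quantile normalisation sets a value by its rank, and the same normalised Cy5 value, such as 18.184, recurred on several arrays. The Cy5 difference is thus one of rank among very bright probes.

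Pcx (chromosome 19, 4510472 to 4621752), which carboxylates pyruvate to oxaloacetate in the mitochondrion, was at 2.93 to 3.12 in male controls and 3.08 to 3.52 in male hypo pups. The male hypo difference was 0.25 ± 0.11 with an adjusted p of 0.895. In females the hypo difference was -0.01 ± 0.14, and over both sexes it was 0.12 with an interval of -0.06 to 0.31. For hyper and hypo+ the both-sex intervals were -0.17 to 0.19 and -0.13 to 0.27.

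Gckr (chromosome 5, 31297266 to 31327302) is a regulatory protein that restrains glucose use in the fasted liver. Its log2 ratios ran from 4.79 to 6.14 and did not separate any treatment from control. The differences over both sexes were 0.00 ± 0.15 for hypo, -0.05 ± 0.14 for hyper and 0.21 ± 0.16 for hypo+. Hypo+ exceeded hypo by 0.21 ± 0.15 with an adjusted p of 0.643. Without the last scan day this difference was 0.30 ± 0.08 and was called, with an adjusted p of 0.0464 where 3.17% of all probes were called. With each channel normalised alone over all 34 arrays, the Cy5 signal of Gckr was not higher in hypo+ than in hypo, with a difference of -0.08 ± 0.05 (adjusted p 0.643). The Cy3 signal, from the common reference, differed by -0.29 ± 0.13, with an unadjusted p of 0.0335 and an adjusted p of 0.934. Over these 34 arrays the ratio was 0.21 ± 0.15 higher in hypo+ and was not called, while the liver channel was not higher. The channels were not fitted alone without the last scan day.

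Pklr (chromosome 3, 89136122 to 89146815), the liver and red cell pyruvate kinase, had the lowest signals of the set, with Cy5 intensities of 268 to 485. In females the hyper ratios were 1.13, 1.19, 1.28, 1.31 and 1.60, against 1.18, 1.76, 1.80 and 1.88 in controls. The hyper pups lay below 3 of the 4 controls and around the fourth. The difference was -0.35 ± 0.16, with an adjusted p of 0.799. In males the difference was -0.03 ± 0.14. Over both sexes the differences were -0.14 ± 0.12 for hypo, -0.19 ± 0.12 for hyper and -0.21 ± 0.13 for hypo+, with adjusted p-values of 0.991, 0.945 and 0.640.

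Pfkfb1 (chromosome X, 150587445 to 150643878) is the liver form of the enzyme that makes and breaks fructose 2,6-bisphosphate, the signal that favours glycolysis over gluconeogenesis. It came closest to the threshold. Its log2 ratio in females was 3.32, 3.42, 3.46 and 3.51 in controls, 3.02, 3.05, 3.10, 3.19 and 3.46 in hypo pups, and 3.07, 3.14, 3.15, 3.20 and 3.31 in hyper pups. All 5 female hyper pups and 4 of the 5 hypo pups lay below all female controls. The female hypo+ pups, at 3.21, 3.41 and 3.49, overlapped these controls. How large a share of all probes separated in such a way was not counted. The female hyper difference was -0.25 ± 0.08, with an adjusted p of 0.503.

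In males the controls were at 3.24, 3.36, 3.38 and 3.65, the hypo pups at 2.99, 3.13, 3.29 and 3.44, the hyper pups at 3.20, 3.20, 3.23, 3.28 and 3.44, and the hypo+ pups at 3.16, 3.19, 3.24 and 3.29. The male groups overlapped, and the highest control was again animal 522. Over both sexes Pfkfb1 was 1.17-fold lower in hypo pups, a log2 difference of -0.23 ± 0.07 with an adjusted p of 0.111, and 1.15-fold lower in hyper pups, a difference of -0.20 ± 0.06 with an adjusted p of 0.260. The hypo+ difference was -0.12 ± 0.07 (adjusted p 0.618). In females hypo+ stood 0.20 ± 0.09 above hypo (adjusted p 0.590). The comparisons share their control pups.

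On slides that held both treatments, Pfkfb1 was lower than in the control pup on 5 of 7 slides for hypo, 7 of 8 for hyper and 5 of 5 for hypo+, with median differences of -0.22, -0.25 and -0.20. Between hypo+ and hypo it was lower on 2 of 4 slides and higher on the other 2 (median -0.02). With slide in place of litter as the random block the hypo difference was still -0.23, and its adjusted p was 0.0451, where 1.91% of all probes were called. Leaving out male hypo pup 891 gave -0.27 (adjusted p 0.0364, with 0.954% of all probes called) and leaving out female hypo pup 721 gave -0.27 (adjusted p 0.0214, with 1.03% of all probes called), while the other 32 pups, left out 1 at a time, gave no call. Without the 4 arrays rich in acinar transcripts the difference was -0.18 with an adjusted p of 0.592. Across all 34 pups the ratios of Pfkfb1 and Slc37a4, centred within each sex, correlated at r = 0.67, a description over points that share the treatments and slides.

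The third of 4 annotated start windows of Pfkfb1 (chrX:150589666-150589965, plus strand, GRCm38.p6, RefSeq) is shown as the only one of them with a match, in capitals, to the nuclear receptor half-site (TGACCT on this strand), 100 bases before the start.
Pfkfb1: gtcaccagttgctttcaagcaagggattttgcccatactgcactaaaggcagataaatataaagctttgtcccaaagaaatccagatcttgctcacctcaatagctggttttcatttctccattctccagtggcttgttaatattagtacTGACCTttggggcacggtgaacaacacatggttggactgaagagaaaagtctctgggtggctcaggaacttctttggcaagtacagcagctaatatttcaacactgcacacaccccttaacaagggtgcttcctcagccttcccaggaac

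Slc2a2 (chromosome 3, 28697903 to 28728361) was read by a brighter and a dimmer probe. For the brighter probe hypo+ exceeded control by 0.40 ± 0.17 over both sexes, a 1.32-fold difference with an adjusted p of 0.361. The female hypo+ pups were at 6.29, 6.66 and 7.00 and the female controls at 5.65, 6.08, 6.27 and 6.63. The ranges overlapped in both sexes. The dimmer probe gave 0.17 ± 0.19 for the same comparison (adjusted p 0.869), and the probes correlated at r = 0.50 over the 34 pups. The reference signal of the brighter probe was above the negative control limit on 30 of 34 arrays, and the part of a dim reference in that probe's spread was not tested.

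**Figure D3:**
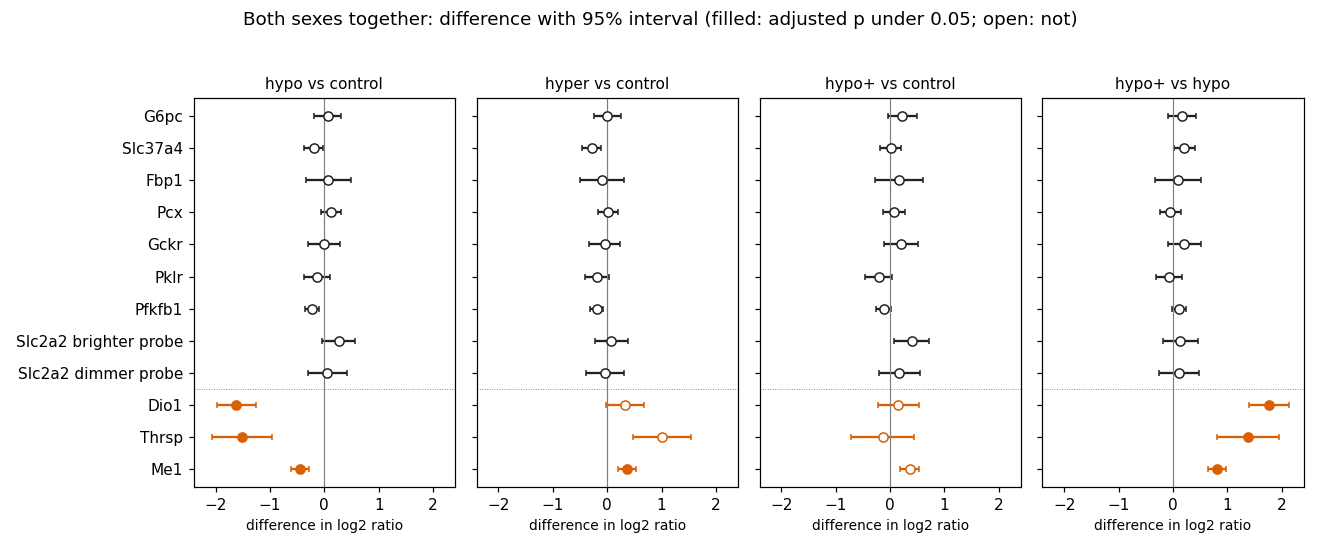
Differences in log2 ratio between treatments over both sexes for the 9 member probes and, below the dotted line, for the known TH targets Dio1, Thrsp and Me1, with 95% intervals; filled points had an adjusted p under 0.05. All members lie between -0.29 and 0.40 with open points, whereas Dio1 lies at -1.62 for hypo against control and at 1.77 for hypo+ against hypo.

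The start windows of the members were searched on both strands for short motifs, as a description of the annotated sequence. Over the 16 windows of the 9 genes, Pck1 included, 6 held AGGTCA (nuclear receptor half-site), which 16.3% of all 32851 windows of 300 bases held. TGACG (cAMP half-site) was in 3 of 16 and in 20.8% of all windows, and the full element TGACGTCA, which contains TGACG, in 0 of 16 and in 1.79%. CACGTG (E box) was in 1 of 16, a window of Pcx, and in 7.15% of all windows, and GTAAACA (forkhead) in 0 of 16 and in 3.65%. Windows of one gene can overlap, and Fbp1 and Gckr had no match in their single windows.

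The same pups responded at known TH targets. Dio1, the deiodinase that activates T4 in liver, had log2 ratios of 5.60 to 6.42 in controls, 3.47 to 5.07 in hypo pups and 5.78 to 6.63 in hypo+ pups. It fell by 1.62 on the log2 scale in hypo pups (adjusted p 2.74e-06). Thrsp, a lipogenic target, fell by 1.51 (adjusted p 0.00256) and Me1, malic enzyme, fell by 0.44 (adjusted p 0.00359). In hyper pups Me1 was called, with a rise of 0.36 (adjusted p 0.0227), and Dio1 and Thrsp were 0.33 and 1.01 above control with adjusted p-values of 0.859 and 0.0866.

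Neighbouring steps of glucose metabolism included genes that passed the test. Of 28 further enzymes shared by glycolysis and gluconeogenesis, 27 had a probe, and a gene counted as called if any of its probes was. Over both sexes limma called 1 higher in hyper than in control (0.692% of all probes called) and 1 higher in hypo+ than in hypo (2.72%). Of the same 27 genes, 0 were called for hypo (0.95%) and 0 for hypo+ (0.588%) against control. At an unadjusted p under 0.05 the counts were 6 and 5 of the 27 genes, where 3233 and 4169 of all 41174 probes were under that limit. A gene with several probes had more chances to pass than a probe alone. The gene counts and probe counts thus cannot be compared directly, and no excess is read from them. Pfkfb3, the inducible relative of Pfkfb1, rose by 0.53 in hyper pups (adjusted p 0.0148) and by 0.47 in hypo+ over hypo (adjusted p 0.0254). This probe had a mean Cy5 signal of 869. The 2 other Pfkfb3 probes, at 106 and 104, were near the negative control limit of 85.0 to 106 and were not called. Pfkfb3 lay at -0.67 to -0.15 in controls and -0.32 to 0.52 in hyper pups. The 4 uncalled genes with the smallest p-values were Aldoa (aldolase A), Hk3 (hexokinase 3), Eno1 (enolase 1) and Pfkfb4, with smallest adjusted p-values of 0.0914, 0.148, 0.167 and 0.353. The 27 enzymes had a median difference from control of 0.05 in hypo pups and 0.03 in hyper pups. Hypo+ pups had a median of 0.01 against control and -0.02 against hypo.

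Among 19 genes through which substrates enter the pathway, all with a probe, 2 were called lower in hypo (0.95% of all probes called). In hyper, 1 was called higher (0.692%). Between hypo+ and hypo, where 2.72% of all probes were called, 2 genes were called higher in hypo+ and 1 in hypo. Gpd2, the mitochondrial glycerol-3-phosphate dehydrogenase of the glycerol route, had log2 ratios of 0.41 to 1.01 in controls, 0.87 to 1.46 in hyper pups, -0.86 to 0.03 in hypo pups and 0.50 to 1.37 in hypo+ pups. All hypo pups lay below all pups of the other groups, but the share of all probes that separated in this way was not counted. Gpd2 fell by 0.81 in hypo (adjusted p 5.97e-05) and rose by 0.52 in hyper (adjusted p 0.0114). Pdhb, a pyruvate dehydrogenase subunit, fell by 0.27 and by 0.34 at its 2 probes in hypo pups (adjusted p 0.0392 and 0.00114). Slc16a1, a lactate and pyruvate transporter, was 0.42 lower in hypo+ than in hypo (a difference of -0.42, adjusted p 0.04) at 1 of 3 probes. Gk (glycerol kinase), Sord (sorbitol dehydrogenase), Gpt2 (alanine aminotransferase 2) and Pdk4 (pyruvate dehydrogenase kinase 4) were not called, with smallest adjusted p-values from 0.260 to 0.361. Hypo pups had a median difference from control of 0.00 over the list. The same median stood at -0.04 for hyper pups. Hypo+ pups had a median of 0.07 against either control or hypo.

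Of 26 hormonal and transcriptional regulators of these genes, 25 had a probe. Against control, 3 were called lower in hypo (0.95% of all probes called), 1 lower in hyper (0.692%) and 1 higher in hypo+ (0.588%). Between hypo+ and hypo, where 2.72% of all probes were called, 4 genes were called higher in hypo+ and 1 in hypo. Ppargc1b, a coactivator of nuclear receptors, was at 0.61 to 1.16 in controls, -0.02 to 0.45 in hypo pups and 1.16 to 2.05 in hypo+ pups. It fell by 0.66 in hypo (adjusted p 0.000438) and stood 1.23 above hypo in hypo+ (adjusted p 9.35e-09). Cebpb, a transcription factor of the gluconeogenic programme, fell by 0.88 in hypo (adjusted p 0.0199) and was 1.46 higher in hypo+ than in hypo (adjusted p 3.32e-05). Its controls spread widely, from -0.55 to 1.42 (median -0.10), and overlapped the hypo pups at -1.27 to 0.08 (median -0.78). Foxo1, a forkhead factor restrained by insulin, was 0.51 higher in hypo+ than in hypo (adjusted p 0.00938). Nr3c1, the glucocorticoid receptor, fell by 0.33 in hypo at 1 of 3 probes (adjusted p 0.00359), and Cebpa was 0.48 lower in hyper (a difference of -0.48, adjusted p 0.0302) at 1 of 2 probes. Irs1, an insulin receptor substrate, was lower in hypo+ than in hypo, by a difference of -0.22 (adjusted p 0.0462). Its mean Cy5 signal of 118 was near the negative control limit, which was 85.0 to 106 over the arrays. Onecut1 was lower in female hypo+ than in female hypo pups, by a difference of -0.73 (adjusted p 0.041). Esrra, Mlxipl (the carbohydrate response factor), Creb1 and Foxa2 were not called, with smallest adjusted p-values of 0.0973, 0.0763, 0.363 and 0.548. The median difference of the 25 genes was 0.00 for hypo, -0.01 for hyper, 0.13 for hypo+ and 0.07 for hypo+ against hypo.

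For several members the last scan day stood farther from the other days than any treatment did from control. On the last scan day Fbp1 was between 7.32 and 7.65 on all 8 arrays, above the 6.04 to 6.93 of the other 26. Gckr was between 5.74 and 6.14 against 4.79 to 5.62, also without overlap. The differences of the means were 0.85 for Fbp1, 0.57 for Gckr, 0.52 and 0.41 for the brighter and the dimmer Slc2a2 probe, 0.47 for G6pc, 0.16 for Pcx, 0.08 for Slc37a4, 0.07 for Pfkfb1 and -0.01 for Pklr. The mean of the hepatocyte markers was 0.84 higher on that day. Across the 34 pups the log2 ratio of Gckr correlated with that marker mean at r = 0.93, Fbp1 and G6pc at r = 0.90 each, Slc37a4 at 0.26 and Pfkfb1 at 0.12, and without the last day at 0.80, 0.53, 0.78, 0.29 and -0.02. The ratios of G6pc and Gckr, centred within each sex, correlated with each other at r = 0.94. These are descriptions over pups that share slides and scan days. In bulk liver a different share of hepatocytes and a different amount of RNA per hepatocyte cannot be told apart. Neither can be told apart from scan day here. With each channel normalised alone, the log2 Cy5 signal of Fbp1 was 17.5 to 17.6 on the last day and 17.1 to 18.3 on the others. Its Cy3 signal, from the common reference, was 9.66 to 10.0 against 9.81 to 11.3. For Gckr, Cy5 was 15.5 to 16.0 against 15.4 to 15.9, and Cy3 was 9.35 to 9.54 against 9.39 to 10.3. For both genes the reference channel thus lay low on that day, while the liver channel kept much the same range. The cause was not tested. The Cy3 limit of the negative controls was 24.4 to 50.2 on the earlier days and 19.8 to 22.0 on the last day. Each treatment and sex had 1 pup on that day, and without it the hypo differences were -0.28 for Pfkfb1 and -0.25 for Slc37a4, with adjusted p-values of 0.0902 and 0.408. The part of scan day in the spread of the members was not tested further.

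**Figure D4:**
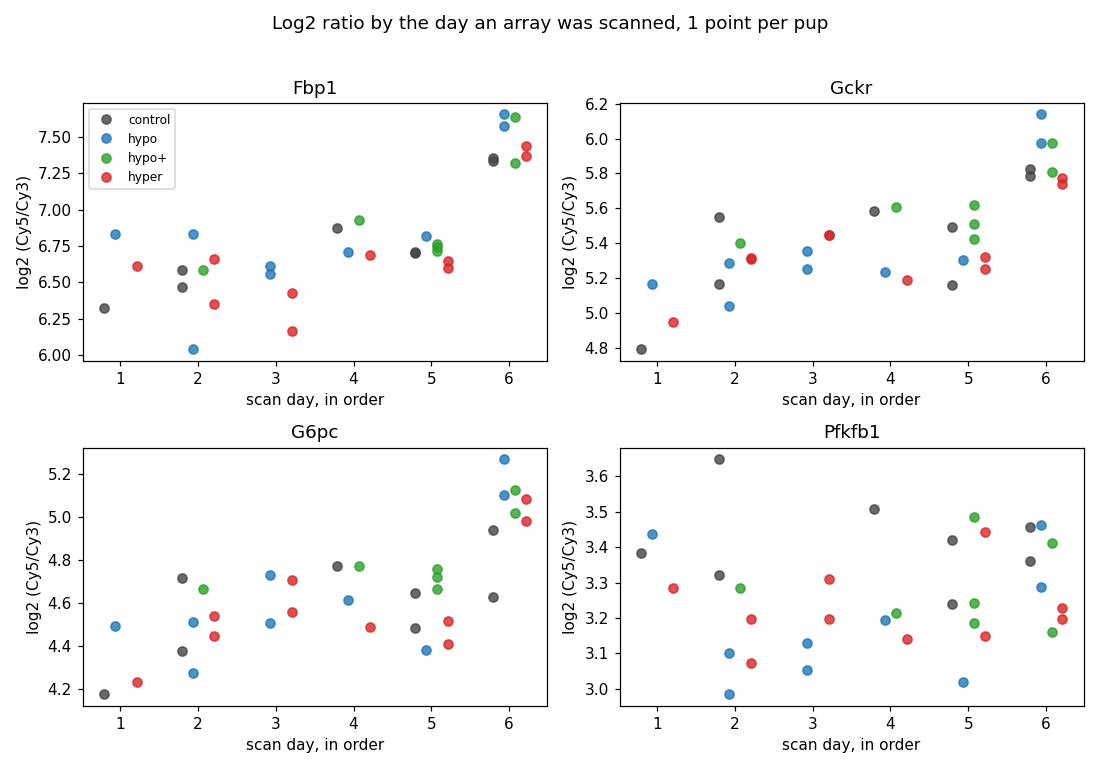
Log2 ratio of Fbp1, Gckr, G6pc and Pfkfb1 against the day on which an array was scanned, in order, 1 point per pup coloured by treatment. All 8 arrays of the last day lie above the others for Fbp1 and Gckr, while Pfkfb1 was 3.16 to 3.46 on that day and 2.99 to 3.65 on the others.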

How the data were processed

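Members, gene lists and motifs were chosen with earlier results of these data known. The deposited scanner files hold median signal intensity per spot from Agilent Feature Extraction, and the authors also deposited a table of log2 ratios, used as an alternative (correlation with the scanner ratios at least 0.846 per array). The authors ran MAANOVA in each sex with a permuted Fs statistic, and limma 3.58.1 in R 4.3.3 stood in for it. Cy5 was divided by Cy3, with no dye swap, loess was run within arrays, control spots and 77 to 212 marked spots per array were left out, and spots of a probe were averaged. Each sex was fitted with its 4 groups, and both sexes in 8 groups with litter (the first 2 digits of the animal number, an inference) as a random block (consensus correlation 0.0714). Contrasts over both sexes are the mean of the male and female contrasts. Benjamini-Hochberg adjustment covered all 41174 probes, with a threshold of 0.05. Of 33541 systematic names, 16806 were named through RefSeq (GRCm38.p6). The number of arrays limits the precision.

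Named beside the members were Dio1, Thrsp and Me1, and from each list the genes called in any comparison plus at most 4 more with the smallest p. An enzyme that had been on these lists is not reported here and was left out of their counts and medians. Marker lists covered hepatocytes, erythroid cells, macrophages, endothelial and stellate cells, cholangiocytes and pancreatic acinar cells. Single channels were quantile normalised. The look at Cy3 alone, the fits without the last scan day or the 4 arrays with an acinar mean above 1, and slide as a fixed block over both sexes were chosen after seeing the data. Other alternatives were normexp with an offset of 50, median centring, the scanner software's log ratio (deposited by the authors as log10 of Cy5 over Cy3, background-subtracted and dye-normalised), Cy5 alone, marked spots kept, a filter on dim probes (negative controls' mean after a 5% trim, plus 3 SD), slide or scan day as a block, only the groups compared, no litter block, and each array left out. The procedure was tested on simulated data.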

Additional observations from a re-analysis of the deposited data

Results flagged for a closer look

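In 7 of 63 groups of 4 or 5 pups, 1 pup's log2 ratio lay far from the others by Dixon's gap ratio at the 95% level, which chance alone passes in about 1 of 20 groups. For G6pc these were male hypo pup 576 at 5.10 and male hypo+ pup 546 at 5.12. For Fbp1 they were male hyper pup 784 at 7.37 and male hypo+ pup 546 at 7.64, and for Gckr male hypo pup 576 at 5.98 and female hypo pup 721 at 6.14. These 6 values all came from the last scan day and were each the highest of their group. For Pklr, female control 882 stood at 1.18, below the other 3 female controls at 1.76 to 1.88.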

How the results depend on the processing

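Of 4005 recomputed member differences, 6 were called. With the Cy5 channel alone over both sexes, 1 member was called for hyper against control (G6pc, 0.88, adjusted p 0.0322) and 1 for hypo+ against hypo (Fbp1, -0.48, adjusted p 0.0376), where the ratio of Fbp1 had the other sign. Without the last scan day, 1 was called for hypo+ against hypo (Gckr, 0.30, adjusted p 0.0464, with 3.17% of all probes called). For hypo against control, 1 was called with slide as the random block (Pfkfb1, -0.23, adjusted p 0.0451, with 1.91% of all probes called), and leaving out 1 pup gave 0 to 1 calls, with Pfkfb1 called without male hypo pup 891 or female hypo pup 721 (0.954% and 1.03% of all probes called). The cause was not tested. In the other comparisons no alternative gave a call. Among 1557 alternative values outside the single-pup omissions, over all comparisons, 149 changed sign, including the called Fbp1 value with Cy5 alone. Under those alternatives the Pfkfb1 hypo difference over both sexes ran from -0.30 to -0.15 and the Slc37a4 hyper difference from -0.30 to -0.17. Pklr and the brighter Slc2a2 probe had reference signals near background, which limits their ratios.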

Other observations

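Markers of other liver cells were measured beside the members. Of these lists 0 genes were called in any comparison over both sexes, where 0.588% to 2.72% of all probes were called. The mean log2 ratio of 7 erythroid genes was 1.49 to 1.95 in controls, 1.38 to 1.80 in hyper, 1.45 to 1.94 in hypo and 1.41 to 1.78 in hypo+ pups. For 6 macrophage genes the controls were at 3.57 to 4.40 and the other groups between 3.42 and 4.39. For 8 endothelial and stellate genes the controls were at 1.13 to 1.97 and the other groups between 1.17 and 1.93. For 5 cholangiocyte genes the controls were at -2.30 to -1.96 and the other groups between -2.50 and -1.64. All 9 acinar genes were lower in hyper and in hypo than in control at an unadjusted p under 0.05, with median differences of -1.42 and -1.48 and 0 called, and 3 of the 4 arrays high in these genes were controls.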
